A study of Arabidopsis thaliana with 18 samples.

Results

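The mitochondrion-encoded features are the 122 rows of a 22-nt small RNA table whose locus ID begins with ATMG, the prefix of the mitochondrial genome in Arabidopsis thaliana. The table has 32420 rows in all, 88 of which carry the chloroplast prefix ATCG. Small RNAs were profiled in whole seedlings aged 14 days, in 6 groups of 3 biological replicates: the double mutant dcl4-2 dcl2-1, the single mutant dcl4-2 and the wild type Col-0, each grown on 1 µM abscisic acid (ABA, a stress hormone) or on plain MS medium. Both mutants carry dcl4-2, and the double mutant carries dcl2-1 as well; each mutation is represented by 1 allele. A growth field of the labels speaks instead of aerial parts from soil; each sample's own genotype, medium and age were used here. Levels are reads scaled to a library's total (RPM), and the reads of each library were recovered from the deposited group means, as described under the processing. The libraries of a group carry no replicate number and are called A, B and C by falling depth.

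Plant mitochondria keep a small genome for subunits of the respiratory chain, ATP synthase, the cytochrome c assembly pathway and the mitochondrial ribosome, and the remaining mitochondrial proteins are imported from the cytosol. Dicer-like enzymes cut double-stranded RNA into small RNAs: DCL2 makes 22-nt RNAs, and DCL4 makes 21-nt RNAs. A copy of most of the mitochondrial genome also sits near the centromere of chromosome 2 of Arabidopsis, so that a short read from a mitochondrial gene can often be placed in the nucleus equally well.

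Depth differed widely between libraries. The total to which reads were scaled was lowest in dcl4-2 dcl2-1 MS library C, at 0.0953 M reads (M for mega), and highest in dcl4-2 ABA library A, at 12.7 M reads. A single read was therefore worth between 0.0789 and 10.5 RPM, and a row with 0 reads could hide up to 0.237 RPM in the deepest library and up to 31.5 RPM in the shallowest, taking 3 counts as the limit that a count of 0 allows. DCL2 had 0 to 2 reads and DCL4 0 to 3 reads in each library, so the mutated genes gave no check of the labels. The 2 nitrate reductase genes, NIA1 and NIA2, held 25.9% of the scaled total in ABA-grown dcl4-2, as the authors' mean.

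The first question was whether reads of these rows can be told from reads of the nuclear copy. The reference (RefSeq, build TAIR10.1) annotates 53 of the 122 IDs, through chromosome 2 genes whose closest protein is the mitochondrial one or which are called pseudogenes of it, and the other 69 IDs are given here without a name or role. Roles below follow these names, so sums and counts by role cover the named rows only. Of 13 mitochondrial protein genes whose coding sequence could be matched by name, all 13 had 100% of their 22-base words on chromosome 2. Between 0% and 10.3% of the words occurred on the other nuclear chromosomes, the highest share being that of ATMG01270 (rps7, a ribosomal protein). The starts of the 4 coding sequences on which later results turn are shown as they stand on chromosome 2, identical to the mitochondrial copy over these 60 bases, with the start codon in capitals.
ATMG01190, atp1, chr2:3362505-3362564, plus strand: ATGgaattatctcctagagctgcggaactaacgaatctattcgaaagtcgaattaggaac
ATMG00730, cox3, chr2:3312592-3312651, minus strand: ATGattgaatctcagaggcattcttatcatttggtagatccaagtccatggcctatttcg
ATMG00180, ccmFC, chr2:3444179-3444238, minus strand: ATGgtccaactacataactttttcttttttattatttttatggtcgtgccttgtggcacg
ATMG00980, rps12, chr2:3270410-3270469, plus strand: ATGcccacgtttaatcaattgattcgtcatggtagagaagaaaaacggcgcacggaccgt

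The deposited table holds both members of 55 such pairs, which cover all 53 annotated IDs. In 11 pairs the mitochondrial and the chromosome 2 row had the same number of reads in each of the 18 libraries, with 6 to 37 reads in total. One of them is ATMG00980 and AT2G07675, the rps12 copy whose start is printed above, each with 37 reads. Such rows count the same reads, or reads that were placed at both loci in equal number, and how reads with several positions were treated is not known here. In total reads, 28 of the 55 pairs had more at chromosome 2, 14 had fewer and 13 had the same number. ATMG00180, which encodes part of the cytochrome c assembly machinery, had 174 reads while AT2G07815 had 38. ATMG00730, cytochrome c oxidase subunit 3, had 288 reads while AT2G07687 had 191. ATMG01190, ATP synthase subunit 1, had 637 reads while AT2G07698 had 731. The rows of a pair need not span the same bases, so these differences are not differences between 2 genomes. Of the 122 rows from AT2G07660 to AT2G07840, 105 had at least 90.6% of their 22-base words in mitochondrial sequence and 11004 reads together, while the other 17 shared no such word and had 890 reads. The 122 mitochondrial rows had 6950 reads.

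**Figure D1:**
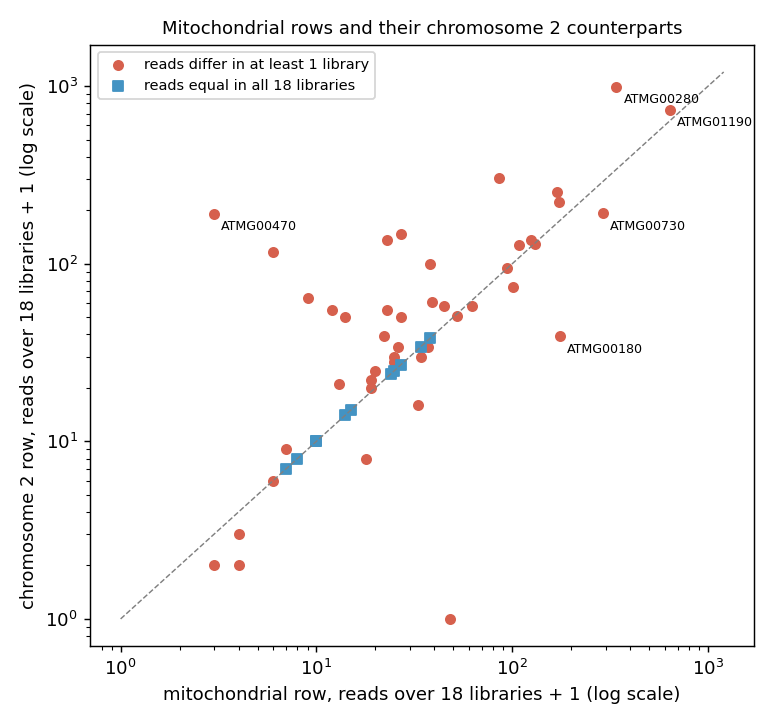
Reads summed over the 18 libraries, plus 1, for each mitochondrial row (x axis, log scale) and its chromosome 2 counterpart (y axis, log scale); squares mark the 11 pairs with equal reads in every library and the dashed line marks equality. ATMG00180 and ATMG00730 lie below the line and ATMG00280 above it.

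The plastid genome adds a further overlap at ATMG00280, which resembles the large subunit of Rubisco, a chloroplast-encoded enzyme. It had 339 reads, while its counterpart AT2G07732 had 984, and 44.4% of the 22-base words of that locus also occur in the plastid genome. The longest run shared by the locus, the mitochondrial genome and the plastid genome is 110 bases. Below, capitals mark bases inside that run, and lower case marks the chromosome 2 bases that follow it.
AT2G07732, chr2:3468489-3468578, plus strand: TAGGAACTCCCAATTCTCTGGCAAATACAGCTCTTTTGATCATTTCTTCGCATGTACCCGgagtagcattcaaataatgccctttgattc

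Levels of the mitochondrial rows were low in every group. Of the 122 rows, 120 had at least 1 read in some library, and ATMG00050 and ATMG00320 had none in any. There were 36 rows with fewer than 10 reads over the 18 libraries and 21 with 100 or more. ATMG00440, ATMG00840 and ATMG01140 had the same reads in every library, 2 in all, and are reported as sharing them. The 12 rows with the highest mean over the 6 groups held 49.8% of all mitochondrial reads. The number of rows detected followed depth: 114 and 113 rows had a read in dcl4-2 ABA libraries A and B, 48 in library C of the same group, and 3 in dcl4-2 dcl2-1 MS library C. When each library was thinned by calculation to 0.5 M reads, leaving out the 2 libraries below that depth, the expected number was 44.4 to 47.5 rows in dcl4-2 on ABA and 22.8 to 31.2 in dcl4-2 on MS. It was 28.3 to 31.9 in dcl4-2 dcl2-1 on ABA, 27.7 to 29.6 in dcl4-2 dcl2-1 on MS, 39.96 to 42.6 in Col-0 on ABA and 28.9 to 35.1 in Col-0 on MS. At this common depth dcl4-2 and Col-0 on ABA lay above the other 4 groups. All genes were not thinned, but library C of dcl4-2 had nearly equal depth on both media (0.517 M reads on ABA and 0.514 M on MS). There 4066 of all genes had a read on ABA and 2017 on MS, beside 48 and 23 mitochondrial rows. A higher number detected on ABA was thus not particular to the mitochondrial rows in these 2 libraries.

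**Figure D2:**
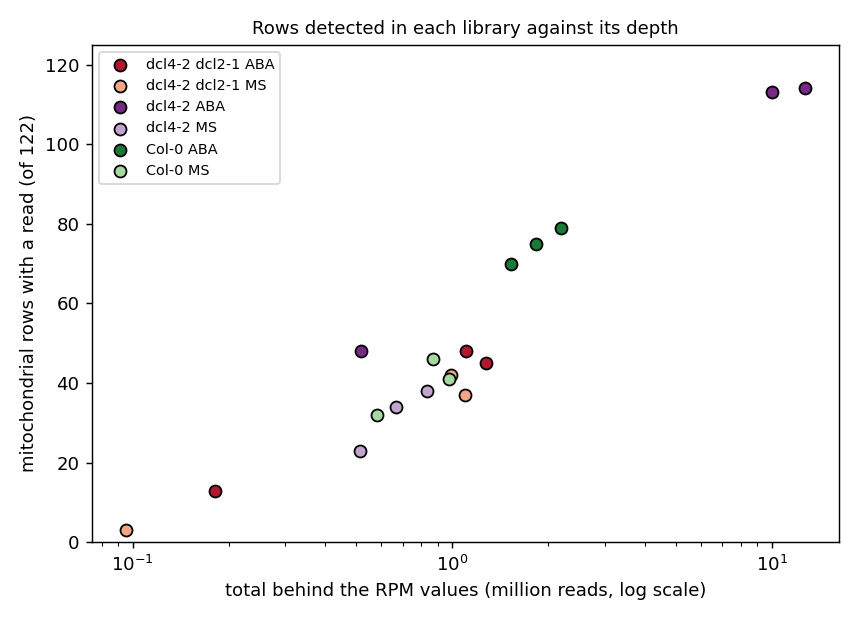
Mitochondrial rows with at least 1 read, of 122 (y axis), against the total behind the RPM values in M reads (x axis, log scale), with 1 point per library. The 2 deepest libraries, both dcl4-2 on ABA, detect 114 and 113 rows, and the shallowest detects 3.

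The summed level of the 122 rows rests on more reads than that of any single row, with 2531 reads in the deepest library and 4 in the shallowest. It was 121, 134 and 94.0 RPM in dcl4-2 dcl2-1 on ABA and 148, 131 and 42.0 RPM in dcl4-2 dcl2-1 on MS. It was 199.7, 199.97 and 298 RPM in dcl4-2 on ABA and 142, 134 and 119 RPM in dcl4-2 on MS. In Col-0 it was 165, 193 and 183 RPM on ABA and 106, 182 and 205 RPM on MS. The lowest value, 42.0 RPM, comes from 4 reads (exact 95% Poisson interval 1.09 to 10.2 reads, which covers counting error only). The 22-nt reads of mitochondrial rows were thus present in the double mutant on both media. Whole seedlings mix many tissues, so fewer cells of a type and less RNA per cell cannot be told apart in these values. The highest value came from dcl4-2 ABA library C, with 0.517 M reads, and libraries A and B of that group were the 2 deepest of all; the part of depth in the result was not tested.

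In dcl4-2, the 3 ABA libraries lay above the 3 MS libraries, with 233 ± 56.7 RPM on ABA and 131 ± 11.8 RPM on MS (SD, n = 3), a ratio of 1.77 that turned to 0.549 when libraries were set to equal summed MIRNA levels and to 0.818 when set to equal levels of all genes other than NIA1 and NIA2. The exact two-sided permutation test gave p = 0.1, the smallest that 3 libraries against 3 allow. In dcl4-2 dcl2-1 the groups overlapped, with 116 ± 20.5 RPM on ABA and 107 ± 56.9 RPM on MS (SD, n = 3; exact permutation p = 0.9), and the ratio of 1.09 became 0.915 without the 2 libraries under 0.2 M reads and fell under 1 with each of the 3 rescalings (0.912, 0.897 and 0.808). In Col-0 they overlapped too, with 181 ± 14.5 RPM on ABA and 164 ± 51.6 RPM on MS (SD, n = 3; exact permutation p = 0.8), and the ratio of 1.10 became 0.524 with MIRNA levels equal, 0.755 without NIA1 and NIA2 and 0.934 without Col-0 MS library A.

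Between genotypes on ABA, dcl4-2 lay above Col-0 in all 3 libraries, at a ratio of 1.29 that became 0.984 with MIRNA levels equal (exact permutation p = 0.1, n = 3 each). The double mutant lay below dcl4-2 in all 3 libraries, at a ratio of 0.501 that became 1.03 when all genes other than NIA1 and NIA2 were set equal (exact permutation p = 0.1, n = 3 each). It also lay below Col-0, at a ratio of 0.645 that became 1.06 under that same rescaling (exact permutation p = 0.1, n = 3 each). On MS the 3 genotypes overlapped. The ratio was 0.800 for dcl4-2 over Col-0 (1.04 with chloroplast levels equal), 0.814 for dcl4-2 dcl2-1 over dcl4-2 (1.06 without the double mutant's library C) and 0.651 for dcl4-2 dcl2-1 over Col-0 (1.14 when all genes other than NIA1 and NIA2 were set equal from rows with a single solution), with exact permutation p of 0.4, 0.8 and 0.3 (n = 3 each). These comparisons share groups and are not independent of each other.

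A ratio taken within a library does not depend on how it was scaled. The 88 chloroplast rows, named for the other genome outside the nucleus, served as the base. In dcl4-2 dcl2-1 on MS, 6 of these rows had several possible splits of their reads over libraries B and C, so the ratios of those 2 libraries are given as ranges. Per 100 RPM of the chloroplast rows, the mitochondrial rows had 22.2, 17.9 and 34.5 RPM in dcl4-2 on ABA and 10.5, 8.73 and 12.03 RPM in dcl4-2 on MS. In Col-0 they had 11.7, 13.4 and 16.1 RPM on ABA and 8.41, 10.6 and 11.2 RPM on MS. In dcl4-2 dcl2-1 they had 6.35, 7.12 and 8.72 RPM on ABA. On MS the double mutant had 13.1 RPM in library A, 6.51 to 26.6 RPM in library B and 2.09 to 8.70 RPM in library C. The ABA-grown libraries of dcl4-2 thus lay above the MS-grown ones without overlap (ratio 2.38, exact permutation p = 0.1, n = 3 each), and above those of Col-0 on ABA (ratio 1.81, exact permutation p = 0.1, n = 3 each). Those of Col-0 on ABA also lay above Col-0 on MS (ratio 1.37, exact permutation p = 0.1, n = 3 each). In dcl4-2 dcl2-1 the media could not be ordered.

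The base itself mattered. Against the 82 chloroplast rows with a single solution in every library, a base chosen after seeing the data, dcl4-2 had 47.8, 38.7 and 64.2 RPM per 100 on ABA and 32.5, 24.4 and 27.98 RPM on MS, again without overlap. In Col-0 the values were 19.7, 25.8 and 27.4 RPM on ABA and 21.3, 29.8 and 28.5 RPM on MS, so the media overlapped. In dcl4-2 dcl2-1 they were 14.5, 15.2 and 15.9 RPM on ABA and 42.6, 41.3 and 11.8 RPM on MS. The sum of all 88 chloroplast rows was 961 ± 138 RPM in dcl4-2 on ABA and 1330 ± 167 RPM in Col-0 on ABA (SD, n = 3), without overlap, so the ratio between these groups moves with its base as well.

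**Figure D3:**
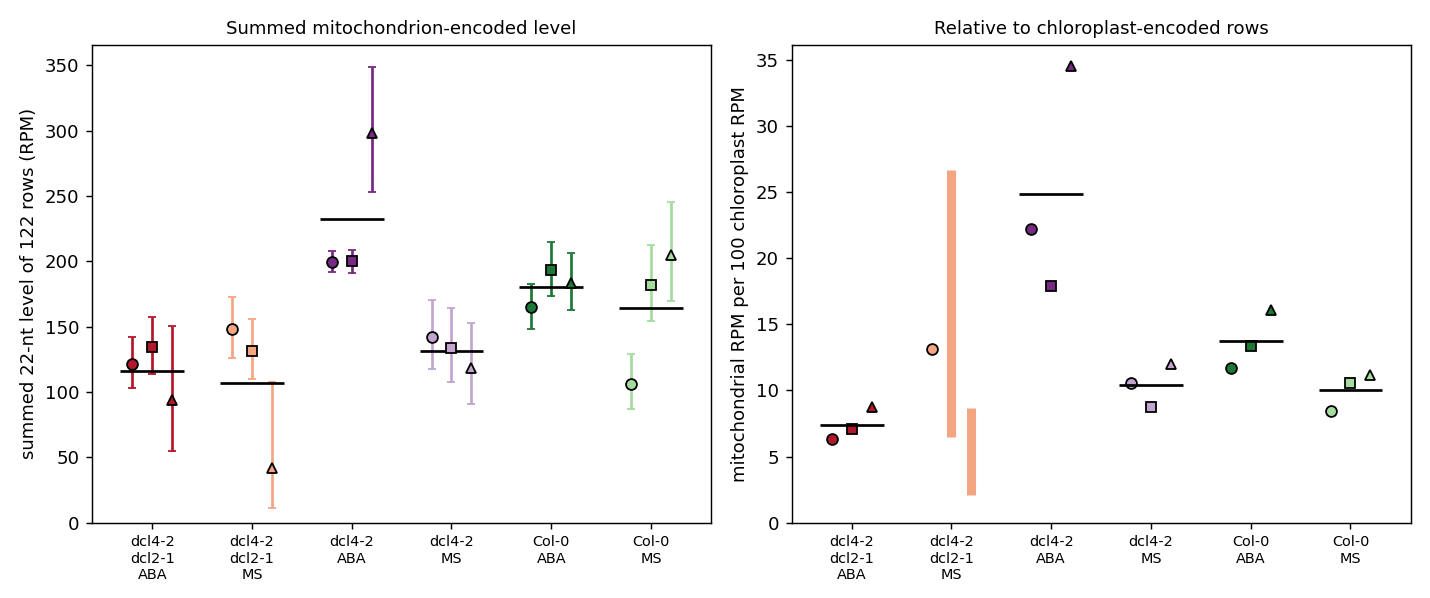
Left, summed 22-nt level of the 122 mitochondrial rows in RPM per library, with exact 95% Poisson intervals; right, the same sum per 100 RPM of the 88 chloroplast rows. Circles, squares and triangles are libraries A, B and C and lines are group means; on the right, thick bars span the possible values of libraries B and C of dcl4-2 dcl2-1 on MS, a group drawn with no mean, and the 3 libraries of dcl4-2 on ABA (17.9 to 34.5) stand above those of dcl4-2 on MS (8.73 to 12.03).

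ATP synthase makes ATP from the proton gradient, and 5 of the mitochondrial rows are named for its subunits or a close relative of them. Together they held 15.6% of all mitochondrial reads. Summed, they had 17.5 ± 5.65 RPM in dcl4-2 dcl2-1 on ABA, 42.2 ± 18.8 RPM in dcl4-2 on ABA and 18.2 ± 4.59 RPM in Col-0 on ABA (SD, n = 3). ATMG01190 (atp1, the alpha subunit) and the unannotated ATMG00030 had the highest mean RPM, not scaled to length, at 16.8 and 16.2 RPM. Without library C of dcl4-2 dcl2-1 on MS, the shallowest, these means were 16.97 and 17.01 RPM, so the 2 rows have no fixed order. ATMG01190 had 7.82, 7.25 and 11.1 RPM in dcl4-2 dcl2-1 on ABA and 31.95, 15.1 and 20.99 RPM in dcl4-2 dcl2-1 on MS. It had 19.01, 17.8 and 44.5 RPM in dcl4-2 on ABA, and 13.2, 27.1 and 21.4 RPM in dcl4-2 on MS. In Col-0 it had 11.9, 8.197 and 7.18 RPM on ABA and 10.2, 16.1 and 12.1 RPM on MS. On ABA all 3 libraries of dcl4-2 lay above both other genotypes, while the log2 difference of dcl4-2 dcl2-1 against dcl4-2, -1.43 ± 0.77 (SE), missed the threshold (limma adjusted p = 0.248). In the authors' deposited table that difference was -1.63 with an adjusted p of 0.0457, and it was the single mitochondrial row to pass there.

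Lengths are known for the 13 matched genes, and these genes are compared here per kilobase of coding length, while the span over which the authors counted is not known. As a mean of the 6 group means, ATMG01080 (atp9, the membrane ring subunit) was highest at 18.9 RPM per kb, followed by atp1 at 11.04 RPM per kb and ATMG00730 (cox3) at 9.11 RPM per kb. This order did not hold in each group: cox3 exceeded atp1 in 4 of 6 groups, among them Col-0 on ABA (6.82 and 5.96 RPM per kb), and atp1 exceeded atp9 in dcl4-2 dcl2-1 on MS (14.9 and 14.4 RPM per kb). The next, ATMG00480 (atp8), was at 3.55 RPM per kb. In dcl4-2 on ABA, atp9 at 19.6 ± 6.14 and atp1 at 17.8 ± 9.90 RPM per kb differed by less than their SD over 3 libraries. The lowest were ATMG00900 (ccmC) at 0.565 and rps7 at 0.334 RPM per kb.

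Cytochrome c oxidase passes electrons to oxygen. Its subunit 3 row, ATMG00730, had 5.47, 4.53 and 5.53 RPM in dcl4-2 dcl2-1 on ABA and 3.65, 6.05 and 0 RPM in dcl4-2 dcl2-1 on MS. It had 9.39, 6.49 and 11.6 RPM in dcl4-2 on ABA and 13.2, 12.03 and 9.73 RPM in dcl4-2 on MS. Col-0 had 4.11, 7.65 and 4.57 RPM on ABA and 6.14, 10.4 and 10.3 RPM on MS. The double mutant lay below dcl4-2 on both media without overlap, with a log2 difference of -1.97 ± 0.80 on MS (SE) and -0.69 ± 0.80 on ABA, and neither passed (limma adjusted p = 0.389 and 0.660). ATMG01280, similar to oxidase subunit 2, had 2.82 RPM as a mean of the 6 groups and overlapped between dcl4-2 and Col-0 on both media.

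Cytochrome b belongs to the complex that hands electrons to cytochrome c. ATMG00220 (cob) had 0, 2.72 and 0 RPM in dcl4-2 dcl2-1 on ABA, 2.29, 2.59 and 3.87 RPM in dcl4-2 on ABA and 1.83, 2.19 and 4.57 RPM in Col-0 on ABA. ATMG00590, a cytochrome b-like row, had 9.67 RPM in dcl4-2 ABA library C, against 0.947 and 0.0998 RPM in libraries A and B, so that its group mean rests on 1 shallow library. NADH dehydrogenase brings electrons into the chain. Summed, the 3 rows named for it had 4.43 ± 1.19 RPM in dcl4-2 on ABA and 0.902 ± 0.796 RPM in dcl4-2 on MS (SD, n = 3). These did not overlap on the deposited scaling, while with MIRNA levels equal dcl4-2 MS library B lies above the ABA libraries. In Col-0 the 3 rows had 5.32 ± 0.694 RPM on ABA and 3.06 ± 3.51 RPM on MS.

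Cytochrome c assembly proteins attach haem to cytochrome c. The 3 rows named for them had 8.97 ± 2.36 RPM in dcl4-2 on ABA and 1.55 ± 0.373 RPM in dcl4-2 on MS (SD, n = 3), summed, without overlap. On ABA they had 2.71 ± 2.50 RPM in dcl4-2 dcl2-1 and 3.53 ± 0.941 RPM in Col-0, both below dcl4-2 in every library as deposited. Most of this came from ATMG00180 (ccmFC), whose start is printed above. It had 6.94, 5.69 and 11.6 RPM in dcl4-2 on ABA and 1.203, 0 and 1.95 RPM in dcl4-2 on MS. It had 0, 0.907 and 5.53 RPM in dcl4-2 dcl2-1 on ABA and 1.83, 2.19 and 3.26 RPM in Col-0 on ABA.

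ATMG00180 was the single mitochondrial row that passed the threshold for ABA against MS in dcl4-2. It was higher on ABA by 2.23 ± 0.72 on the log2(RPM + 1) scale (SE, limma adjusted p = 0.0474, 3 of 3 libraries above every MS library). The call ended when any 1 of the 6 libraries compared was left out (adjusted p from 0.0586 without dcl4-2 MS library C to 0.224 without dcl4-2 ABA library C), and also without any Col-0 ABA library (0.0561 to 0.0610) or library A of dcl4-2 dcl2-1 on ABA (0.0504), which enter through the shared spread, while the sign stayed positive in every alternative run. The adjusted p was 0.495 with MIRNA levels equal, 0.452 without NIA1 and NIA2, and 0.0138 with chloroplast levels equal. Its differences of dcl4-2 dcl2-1 against dcl4-2 on ABA (-1.92 ± 0.72, SE, limma adjusted p = 0.0827) and of dcl4-2 against Col-0 on ABA (1.37 ± 0.72, SE, limma adjusted p = 0.865) did not pass, although the libraries did not overlap in either.

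The 4 rows that the reference names for ribosomal proteins, parts of the mitochondrial translation machinery, had 5.39 ± 2.05 RPM in dcl4-2 on ABA, summed (SD, n = 3). They had 1.70 ± 1.81 RPM in dcl4-2 on MS, 1.47 ± 1.91 RPM in dcl4-2 dcl2-1 on ABA and 1.75 ± 1.11 RPM in Col-0 on ABA. On the deposited scaling the 3 libraries of dcl4-2 on ABA, at 3.94, 4.49 and 7.74 RPM, lay above those of each of these groups. With MIRNA levels equal, dcl4-2 MS library A and dcl4-2 dcl2-1 ABA library B lie above all 3. The same holds with all genes other than NIA1 and NIA2 set equal. As deposited, the 3 libraries overlapped Col-0 on MS, which had 2.05, 6.91 and 0 RPM. The list of roles made for the tests also held ATMG00560, ATMG00080 and ATMG00090 as ribosomal, before the reference names took precedence. ATMG00560 had 5.76, 3.59 and 7.74 RPM in dcl4-2 on ABA and 6.85, 5.46 and 5.22 RPM in Col-0 on ABA, which overlap. The separation from Col-0 on ABA is therefore given for the 4 named rows only. ATMG00290 (rps4) had 1.42, 1.60 and 3.87 RPM in dcl4-2 on ABA and 1.37, 0 and 0 RPM in Col-0 on ABA, a log2 difference of 1.23 ± 0.57 (SE, limma adjusted p = 0.777). ATMG00980 (rps12) had no read in any library of dcl4-2 dcl2-1 on ABA, and 1.03, 0.998 and 3.87 RPM in dcl4-2 on ABA. The single row that resembles the RNA polymerase of mitoviruses, RNA viruses that replicate in mitochondria, is ATMG01110. It had 3.39, 2.00 and 3.87 RPM in dcl4-2 on ABA and 1.56, 0 and 0 RPM in dcl4-2 dcl2-1 on ABA.

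Only 2 rows are named for plastid-like proteins. ATMG00280, the Rubisco-like row, had 16.4, 8.16 and 11.1 RPM in dcl4-2 dcl2-1 on ABA, 5.68, 10.5 and 9.67 RPM in dcl4-2 on ABA and 8.22, 15.3 and 9.79 RPM in Col-0 on ABA. Its differences on the log2(RPM + 1) scale lay between -0.33 and 0.41 over the 9 comparisons, and its libraries overlapped in each. ATMG00370, similar to the plastid Ycf1 protein, had 33 reads in all.

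The larger share of the mitochondrial reads, 52.6%, lay in the 69 rows that the reference does not annotate. Summed, these had 59.2 ± 19.3 RPM in dcl4-2 dcl2-1 on ABA, 119.5 ± 23.8 RPM in dcl4-2 on ABA and 55.7 ± 11.2 RPM in dcl4-2 on MS (SD, n = 3). In Col-0 they had 101 ± 12.04 RPM on ABA and 87.5 ± 46.2 RPM on MS. ATMG00030 led them with 669 reads. It had 14.9, 15.4 and 11.1 RPM in dcl4-2 dcl2-1 on ABA, 14.3, 21.3 and 19.3 RPM in dcl4-2 on ABA and 18.3, 32.2 and 15.7 RPM in Col-0 on ABA, and dcl4-2 overlapped Col-0. On the deposited scaling ATMG00520 stood apart in dcl4-2 on ABA, with 10.4, 8.98 and 9.67 RPM there. It had 4.81, 0 and 1.95 RPM in dcl4-2 on MS, a log2 difference of 2.05 ± 0.74 (SE, limma adjusted p = 0.0704). These groups overlap with MIRNA levels equal, and also with all genes other than NIA1 and NIA2 set equal. ATMG00760 stood apart in Col-0 on ABA, with 7.76, 8.74 and 7.83 RPM there and 2.05, 0 and 1.72 RPM in Col-0 on MS, a log2 difference of 2.17 ± 0.74 (SE, limma adjusted p = 0.145). Among ABA-grown libraries ATMG00760 was also lower in dcl4-2 dcl2-1, with 1.56, 2.72 and 0 RPM, and in dcl4-2, with 5.29, 3.69 and 3.87 RPM, than in Col-0, though neither difference passed.

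ATMG00513 was the single mitochondrial row that passed the threshold for dcl4-2 dcl2-1 against dcl4-2 on ABA. It was lower in the double mutant by 2.11 ± 0.69 on the log2(RPM + 1) scale (SE, limma adjusted p = 0.0479). It had 0, 2.72 and 0 RPM in dcl4-2 dcl2-1 and 5.44, 4.29 and 7.74 RPM in dcl4-2. The adjusted p was 0.109, 0.0644 and 0.197 without dcl4-2 ABA libraries A, B and C, 0.147 without library A of the double mutant, 0.165 without its library C and 0.0286 without its library B. Leaving out any Col-0 ABA library, which enters through the shared spread, gave 0.0570 to 0.0613. Leaving out the 35 non-mitochondrial rows with several solutions gave 0.0501. With MIRNA levels equal, 0 mitochondrial rows passed this comparison (0.333% of all genes), and the libraries of ATMG00513 overlap. The same holds with all genes other than NIA1 and NIA2 set equal (0.547% of all genes). The ABA effect of ATMG00513 in dcl4-2, 1.92 ± 0.69 (SE), missed the threshold (limma adjusted p = 0.0702).

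**Figure D4:**
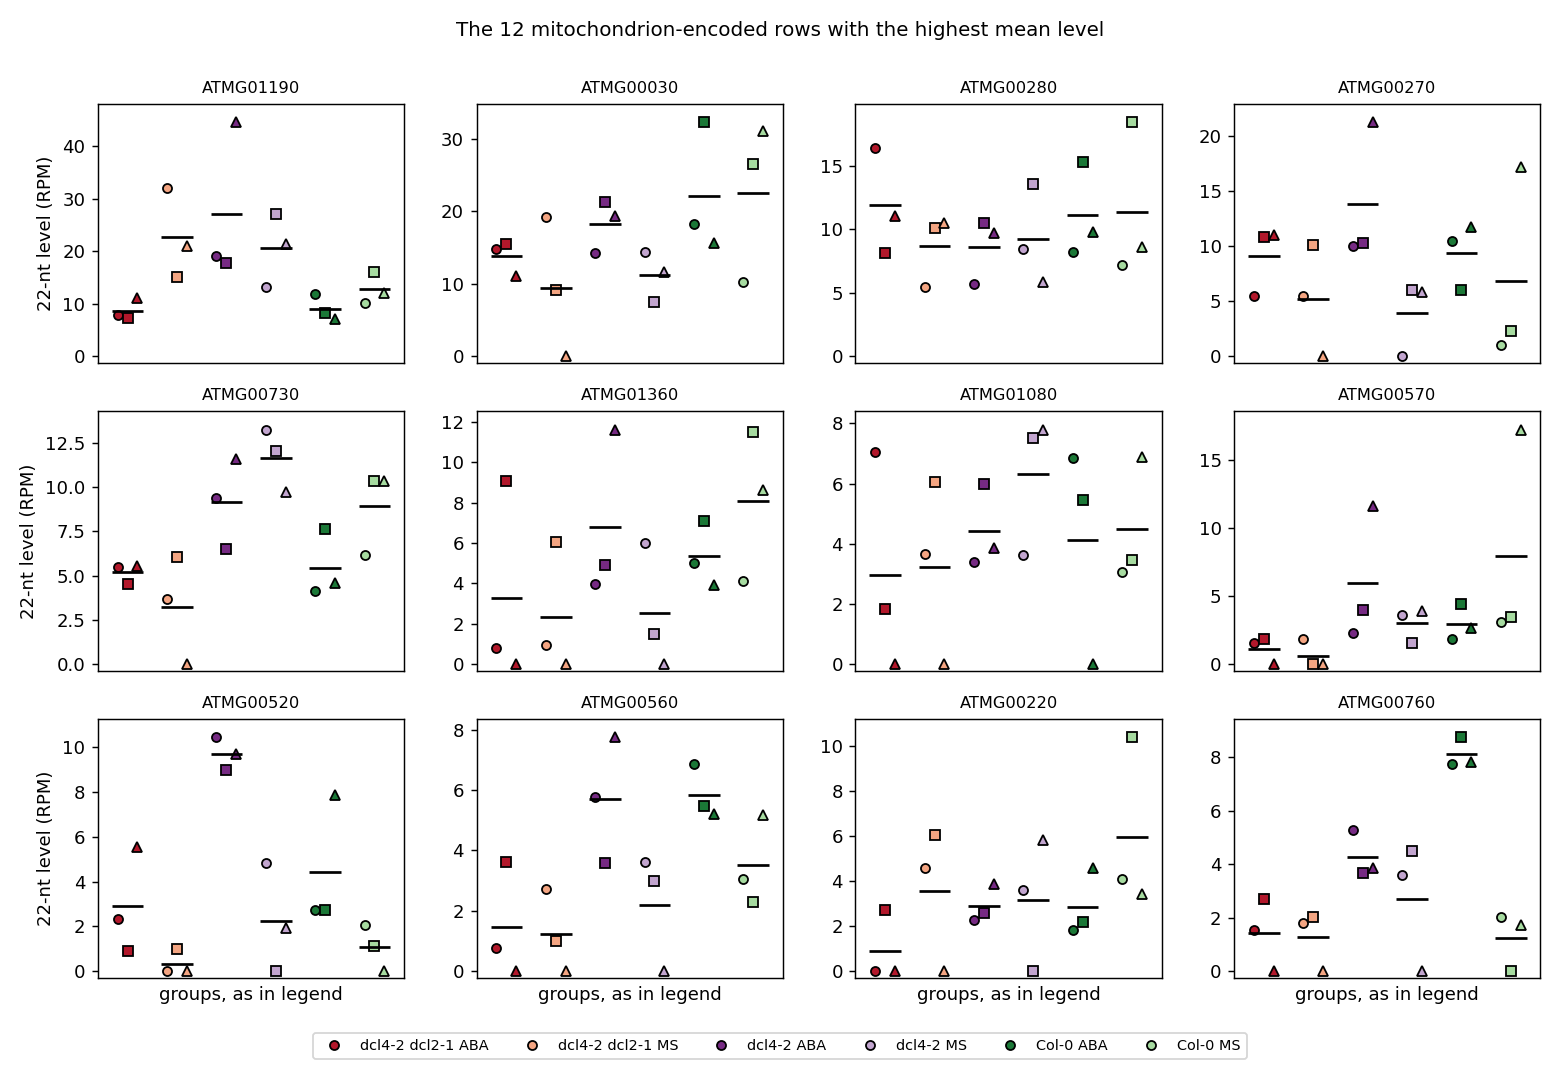
Level in RPM (y axes) in each library for the 12 mitochondrial rows with the highest mean; circles, squares and triangles are libraries A, B and C and lines are group means. ATMG01190 is highest in dcl4-2 ABA library C (44.5 RPM), ATMG00520 in the 3 libraries of dcl4-2 on ABA and ATMG00760 in those of Col-0 on ABA.

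Across rows, 67 of the 122 had at least 1 RPM in at least 3 libraries and were tested with all other such genes, 5695 in total. A row could enter through the group in which it is high, so counts over these rows describe them and are not support for a difference. For ABA against MS in dcl4-2, 1 mitochondrial row passed (1.49%), while 5.58% of all genes passed. At an unadjusted p under 0.05, 12 were higher (17.9%), while 22.7% of all genes were higher. The libraries did not overlap in 15 rows, all higher (22.4%), while 25.5% of all genes were higher in this way. The median log2 difference was 0.61 for the mitochondrial rows and 0.51 for all genes. By each of these counts the share of mitochondrial rows was below or near that of all genes.

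For dcl4-2 dcl2-1 against dcl4-2 on ABA, 1 row passed, lower, while 6.29% of all genes passed in either direction. At an unadjusted p under 0.05, 15 rows were lower (22.4%), while 22.2% of all genes were. The libraries did not overlap in 18 rows, all lower (26.9%), while 25.7% of all genes were lower in this way, and the medians were -0.65 for the mitochondrial rows and -0.51 for all genes. Of the 67 tested rows, 59 had a log2 difference below 0 (88.1%), while 75.9% of all genes did. Roles rest on the reference names alone, so none stands for a whole complex, and unannotated rows can belong to the same complexes. Of the 37 tested rows without annotation, 35 had a log2 difference below 0. Among named rows, it was below 0 in 5 of 5 for ATP synthase and 3 of 3 tested for ribosomal proteins. It was also below 0 in both for cytochrome b and both for cytochrome c oxidase. Both tested rows named for NADH dehydrogenase had one above 0. Each of those 2 rows had 1 read in library C of the double mutant on ABA, where a read is worth 5.53 RPM. ATMG01275 had none in libraries A and B of that group. The list of roles made for the tests also held unannotated rows as NADH dehydrogenase, before the reference names took precedence. Among them ATMG00513 passed as lower here, while ATMG00060 had a higher mean (1.13 RPM, against 0.562 RPM in dcl4-2). The 2 named rows thus do not give the direction of the complex. The 2 comparisons share the ABA-grown dcl4-2 libraries, so their opposite signs are not independent.

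In the other 7 comparisons 0 mitochondrial rows passed with limma, and the share of all genes that passed was small too. It was 0.667% for ABA against MS in Col-0, 0.176% for ABA against MS in dcl4-2 dcl2-1, 0.299% for dcl4-2 against Col-0 on MS and 0.228% on ABA. It was 0.615% for dcl4-2 dcl2-1 against dcl4-2 on MS, 1.21% against Col-0 on MS and 0.615% against Col-0 on ABA. At an unadjusted p under 0.05, 5 rows were higher with ABA in Col-0 (7.46%, while 12.6% of all genes were). In dcl4-2 dcl2-1 it was 1 row (1.49%, while 5.27% of all genes were). For dcl4-2 against Col-0 there were 2 higher and 5 lower on MS (2.99% and 7.46%, while 2.49% and 6.67% of all genes were). On ABA there were 1 higher and 1 lower (1.49% each, while 3.99% and 1.9% of all genes were). In dcl4-2 dcl2-1, 3 were lower than in dcl4-2 on MS, 9 lower than in Col-0 on MS and 6 lower than in Col-0 on ABA. These are 4.48%, 13.4% and 8.96% of the tested mitochondrial rows, while the shares over all genes were 5.86%, 10.5% and 17%. The smallest adjusted p in these 7 comparisons was that of ATMG01260, a row with a pseudogene counterpart on chromosome 2, which had no read in dcl4-2 dcl2-1 on MS and 5.11, 3.45 and 1.72 RPM in Col-0 on MS (limma adjusted p = 0.0878). ATMG01240 had 3.61, 0 and 3.89 RPM in dcl4-2 on MS and no read in any Col-0 library (limma adjusted p = 0.238, and 0.0438 without dcl4-2 MS library B, where it had 0).

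**Figure D5:**
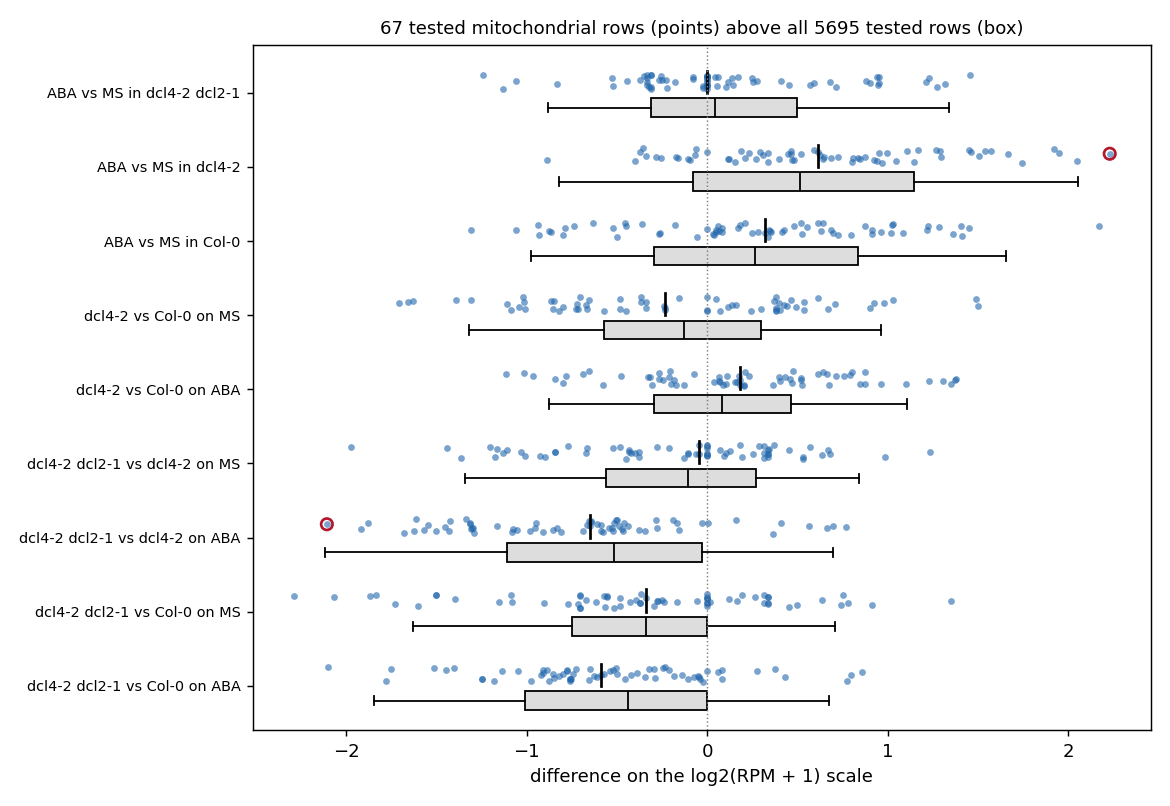
Difference on the log2(RPM + 1) scale (x axis) for the 67 tested mitochondrial rows (points, with their median as a line) and for all 5695 tested genes (boxes from the 25th to the 75th percentile, whiskers from the 5th to the 95th) in 9 comparisons. Rings mark ATMG00180 and ATMG00513, the 2 calls, and in each comparison the points spread over about the range of the box and whiskers.

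Whether the ABA effect differed between genotypes was tested as an interaction, and 0 mitochondrial rows passed in any of the 3 tests, while 0.211% of all genes did for dcl4-2 dcl2-1 minus dcl4-2, 0.263% for dcl4-2 minus Col-0 and 0.158% for dcl4-2 dcl2-1 minus Col-0. For dcl4-2 dcl2-1 minus dcl4-2 the median interaction was -0.64 over the mitochondrial rows and -0.39 over all genes, and 4 rows were lower at an unadjusted p under 0.05 (5.97%, while 9.15% of all genes were lower). ATMG00513 had the smallest p there, with -2.45 ± 0.98 (SE, limma adjusted p = 0.358). For dcl4-2 minus Col-0 the median was 0.38 over the mitochondrial rows and 0.23 over all genes, with 3 rows higher and 2 lower at an unadjusted p under 0.05 (4.48% and 2.99%, while 5.29% and 1.21% of all genes were). For dcl4-2 dcl2-1 minus Col-0 it was -0.28 over the mitochondrial rows and -0.15 over all genes, with 1 higher and 2 lower (1.49% and 2.99%, while 2.79% and 4.65% of all genes were).

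The authors' deposited table covers 4 of the comparisons. It gives an adjusted p to 29 mitochondrial rows for ABA against MS in dcl4-2, of which 0 passed, and to 32 for dcl4-2 dcl2-1 against dcl4-2 on ABA, of which atp1 passed. Over all genes, 8.14% and 8.88% passed in those 2 comparisons of the authors' table. In the authors' table for ABA against MS, 0 of 32 mitochondrial rows passed in Col-0 and 0 of 120 in dcl4-2 dcl2-1, where 2.57% and 0.0233% of all genes passed.

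Nuclear genes for mitochondrial respiration, mitochondrial transcription and RNA turnover, a list of 37 rows, were set beside the mitochondrial ones. Of these, 30 had a read in some library, 11 were abundant enough to test and 0 passed with limma in any of the 9 comparisons or the 3 interactions, with at most 1 at an unadjusted p under 0.05 in each. Summed, they had 9.82 ± 4.71 RPM in dcl4-2 dcl2-1 on ABA, 21.2 ± 5.03 RPM in dcl4-2 on ABA and 13.1 ± 8.80 RPM in dcl4-2 on MS (SD, n = 3). In Col-0 they had 9.27 ± 2.39 RPM on ABA and 20.8 ± 16.3 RPM on MS. Over the 11 tested genes the median ABA difference on the log2 scale was -0.63 in Col-0 and 0.68 in dcl4-2, while that of the mitochondrial rows was 0.32 in Col-0 and 0.61 in dcl4-2. For dcl4-2 dcl2-1 against dcl4-2 on ABA it was -0.40, while that of the mitochondrial rows was -0.65.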

How the data were processed

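Small RNA libraries were made with a miRNeasy kit and a NEBNext small RNA kit and only the first read of a pair was used, per the labels. The submitters' processing notes name Bowtie 1.2.2, SAMtools 1.9, DESeq2 and TAIR10 but not what each was used for. The handling of reads with several positions and the total used for scaling are not stated in any source at hand.

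The deposited table is headed TPM per the file headers, but its values are RPM group means made by the authors: each is a sum of whole multiples of 3 fixed steps, the same for every gene. Solving for the 3 whole numbers gave the reads of each library, with a single solution for every mitochondrial row. In dcl4-2 dcl2-1 on MS, 35 other rows had several solutions, 6 of them chloroplast rows, and the most even one was taken. NIA1 and NIA2 were too abundant in dcl4-2 on ABA to be searched and were left out of the tests. The same table gives the authors' log2 fold changes with p-values; these are quoted as deposited.

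Differences were tested with limma 3.58.1 (R 4.3.3) on log2(RPM + 1), with a trended prior, a mean per group and a spread shared by all 18 libraries, for genes with at least 1 RPM in 3 or more libraries. The pseudocount understates changes of low rows. P-values are two-sided, adjusted by Benjamini-Hochberg over 5695 genes, with a threshold of 0.05. Summed levels were compared by exact permutation over libraries. The fit and the recovery were tested on simulated data. The fit gave the right direction at every simulated fold and called almost no unchanged gene, but it called only a minority of the changed genes, even at the largest folds. It missed the recall first required of it, and that requirement was lowered after the result was seen, so the absence of a call carries little weight at these depths. The recovery was exact in nearly every simulated row, with the misses in dcl4-2 dcl2-1 on MS. Replicates are biological, per the series' design text, and no pair of libraries in a group agreed within sampling noise (chi-square per degree of freedom from 1.65 to 12.5).

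The members and lists were chosen with earlier results of these data known. The text names the 12 rows with the highest mean, every row that passed, the 2 with the smallest p in each comparison and the 2 most abundant of each role; the mitochondrial ribosomal RNA rows are not analysed here. Positions are on TAIR10.1, from sequence matches to RefSeq. Alternatives were other pseudocounts, filters, scalings, voom weights, the compared groups alone and each library left out. After seeing the data, the fit without the 35 rows and the rescalings from rows with a single solution were added.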

Additional observations from a re-analysis of the deposited data

How the results depend on the processing

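No paired analysis was possible because the recovered libraries carry no replicate numbers. The counts of passing mitochondrial rows changed mainly for ABA against MS in dcl4-2 (1 in the analysis reported above) and for dcl4-2 dcl2-1 against dcl4-2 on ABA (1 likewise). Both became 0 with a pseudocount of 0.5, no filter, equal MIRNA levels or equal levels without NIA1 and NIA2. The spread of the compared groups alone gave 0 too. Over these runs both counts stood beside all-gene shares of 0.2% to 4.97% and 0.333% to 5.22%. With a pseudocount of 5 they became 3 and 2 (4.48% and 2.99% of those tested, while 5.43% and 7.02% of all genes passed). With a filter of 2 RPM in 6 libraries they became 3 and 3 of 29 tested (10.3% each, while 24.4% and 26.7% of 1490 genes passed), and with equal chloroplast levels 10 and 15 of 68 tested (14.7% and 22.1%, while 19.4% and 22% of all genes passed), where 1080 of all genes were higher for ABA in dcl4-2 and 1254 were lower in the double mutant. With voom weights the ABA count became 0 (while 5.88% of all genes passed). Without the libraries under 0.2 M reads it became 3 of 66 (4.55%, while 10.3% of all genes passed). Leaving out each library gave 0 to 2 for ABA in dcl4-2 (while 0.261% to 8.48% of all genes passed). It gave 0 to 1 for dcl4-2 dcl2-1 against dcl4-2 on ABA (while 1.27% to 8.05% did) and 0 to 1 for dcl4-2 against Col-0 on MS. Without dcl4-2 MS library A, the rows passing for ABA in dcl4-2 did not include ATMG00180. Alternatives chosen after seeing the data dealt with the 35 rows that had several solutions in dcl4-2 dcl2-1 on MS. Leaving them out gave 1 and 0 (while 5.32% and 5.95% of all genes passed). Rescaling from rows with a single solution gave 0 and 0 for MIRNA levels (while 1.81% and 0.0881% of all genes passed). It gave 0 and 0 for all genes without NIA1 and NIA2 (0.375% and 0.572% of all genes). For chloroplast levels it gave 3 and 5 (9.07% and 12.8% of all genes). With that MIRNA rescaling, 1 row passed for ABA against MS in dcl4-2 dcl2-1. The other 8 counts stayed at 0.

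Summed-level ratios that crossed 1 did so as follows. With equal MIRNA levels the ABA over MS ratio was 0.524 in Col-0, 0.549 in dcl4-2 and 0.912 in dcl4-2 dcl2-1, and dcl4-2 over Col-0 on ABA was 0.984. With equal levels without NIA1 and NIA2 the ABA over MS ratio was 0.755 in Col-0, 0.818 in dcl4-2 and 0.897 in dcl4-2 dcl2-1, and on ABA dcl4-2 dcl2-1 stood at 1.03 of dcl4-2 and 1.06 of Col-0. With equal chloroplast levels the ABA over MS ratio was 0.808 in dcl4-2 dcl2-1, and dcl4-2 over Col-0 on MS was 1.04. Without the libraries under 0.2 M reads the ABA over MS ratio was 0.915 in dcl4-2 dcl2-1, and dcl4-2 dcl2-1 over dcl4-2 on MS was 1.06. From rows with a single solution, equal MIRNA levels gave ABA over MS ratios of 0.192 in Col-0, 0.225 in dcl4-2 and 0.187 in dcl4-2 dcl2-1, and 1.22 for dcl4-2 over Col-0 on MS; dcl4-2 dcl2-1 over Col-0 was 1.16 on MS and 1.13 on ABA. Likewise, equal levels without NIA1 and NIA2 gave 0.761 in Col-0, 0.831 in dcl4-2 and 0.736 in dcl4-2 dcl2-1, and on MS 1.03 for dcl4-2 over Col-0 and 1.11 for dcl4-2 dcl2-1 over dcl4-2; dcl4-2 dcl2-1 over Col-0 was 1.14 on MS and 1.11 on ABA. Equal chloroplast levels gave 0.917 in Col-0 and 0.477 in dcl4-2 dcl2-1, and on MS 1.07 for dcl4-2 over Col-0, 1.13 for dcl4-2 dcl2-1 over dcl4-2 and 1.203 over Col-0. Leaving out each library gave ABA over MS ratios of 0.934 to 1.25 in Col-0, 1.52 to 1.89 in dcl4-2 and 0.835 to 1.34 in dcl4-2 dcl2-1, and 0.658 to 1.06 for dcl4-2 dcl2-1 over dcl4-2 on MS. The scalings also moved the values over all genes. For ABA in dcl4-2 the all-gene median log2 difference was 0.51 as deposited and 0.02 with equal MIRNA levels. It was 0.11 without NIA1 and NIA2 and 0.72 with equal chloroplast levels. In that order, genes passing higher and lower were 302 and 16, 10 and 19, 10 and 10, and 1080 and 34 (120 and 215 with voom weights). These medians and the summed ratios are different measures, so they do not show shifts of equal size. The cause of these changes was not tested. Most mitochondrial rows have so few reads that a p that misses the threshold does not show equal levels.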
